A study of Homo sapiens with 40 samples.

Results

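Polysome RNA of IL-13 treated bronchial epithelial cells was compared between a line labelled as an IGF2BP3 knockdown and its control line. The comparison took the 5 knockdown and the 5 control libraries that the labels give as polysome fraction with IL-13, 10 of the 40 libraries of the series. All were BEAS-2B, an immortalised human lung epithelial line. The control group carried a constitutive control hairpin (shControl) and the other a hairpin against IGF2BP3 (shIGF2BP3), though the deposited column names write siC and siIGF2BP3. Both groups were grown in RPMI with 10% FBS, starved overnight in 2% medium, given IL-13 at 100 ng/ml and harvested after 24 h. The other 30 libraries were unstimulated polysome RNA and input (total) RNA of the same lines, 5 in each group. Each hairpin was represented by 1 line, so the hairpin and any other difference between the lines cannot be told apart. Nothing in the labels says that replicates were separate cultures, so p-values measure only the spread between libraries. In the main edgeR fit this spread was taken over all 40 libraries, not over the 10 compared alone.

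IGF2BP3 is an RNA-binding protein of the IGF2BP (IMP) family, which binds mRNAs, partly at m6A-modified sites, and is known for altering their stability and translation. IL-13 is a type 2 cytokine that acts on airway epithelium through IL4R and IL13RA1, the JAK kinases and STAT6. In Frac-seq, RNA that sediments with several ribosomes is taken as the polysome fraction and sequenced beside the total RNA of the cells. A polysome level reflects both the amount of an mRNA and its loading, and in bulk samples fewer cells of a type and less RNA per cell cannot be told apart.

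The control libraries held between 9173801 and 34082140 estimated counts. Knockdown libraries 1 to 4 held between 25016495 and 33763234, and knockdown replicate 5 held 2302954. Mitochondrially encoded RNA took 0.251% to 0.906% of the counts. KRT8, KRT18, KRT7 and VIM were above 100 CPM in all 10 libraries, whereas the epithelial markers EPCAM and CDH1 were at most 2.17 and 0.511 CPM and the basal cell keratin KRT5 at most 0.644 CPM. Values are CPM (counts relative to the scaled library size) unless TPM, which is also per transcript length, is named. Differences are log2 of the line labelled knockdown minus control, with the standard error (SE) of the edgeR fit over all 40 libraries, and a gene was called at a Benjamini-Hochberg adjusted p under 0.05.

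To show sequence that IGF2BP proteins are reported to favour, 25 coding bases around the first UGGAC (in capitals, written with T as in DNA) were read from the longest protein-coding GENCODE v29 transcript of 4 genes. These are the protein-coding genes called below that averaged at least 10 CPM in both lines.
PRDX3: cccagcgaacTGGACaccggattct
PUDP: atctttgacaTGGACggacttcttc
RGS4: tctgattggcTGGACggtcgtagct
ZFAND3: atggtgaagcTGGACcggaaagtgg
Each of the 4 coding sequences held this motif once on the sense strand, which was the strand searched. It is a common motif: 91.1% of the longest transcripts of the genes tested held it, at a median of 1.08 per kb. Binding was not measured.

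The targeted gene comes first, since it checks the labels. IGF2BP3 measured 12.8, 4.23, 12.3, 12.5 and 11.2 CPM in control replicates 1 to 5 and 14.7, 7.00, 12.7, 8.69 and 2.60 CPM in the knockdown replicates. The groups overlapped: knockdown replicate 1 lay above every control library and replicate 5 below every one. The difference was -0.28 on the log2(CPM + 1) scale, with a two-sided exact permutation p of 0.556 (0.762 adjusted over the 3 family members). The smallest p that 5 against 5 allows is 0.00794. Without knockdown replicate 5 the difference was 0.05, and over the 10 sets that left out a library it ran from -0.54 to 0.05. IGF2BP3 polysome RNA therefore did not separate the lines, and every direction below rests on the labels alone.

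IGF2BP2, its paralog, measured 49.5, 29.4, 56.6, 81.2 and 75.6 CPM in control and 127, 75.2, 137, 79.8 and 55.9 CPM in the libraries labelled knockdown. Knockdown replicates 1 and 3 lay above every control library and the other three within the control range. The log2(CPM + 1) difference was 0.69, with an exact permutation p of 0.111, adjusted to 0.333. IGF2BP1 was low in both lines, at 2.91 CPM ± 1.41 in control and 2.54 CPM ± 0.936 in the line labelled knockdown (SD, n = 5; exact permutation p = 0.762).

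The line difference was then asked of all genes. Of 16735 genes tested, 15 were called (0.0896%), 9 higher (0.0538%) and 6 lower (0.0359%) in the line labelled knockdown. The genes that rose were TNS1, MATK, PUDP, RGS4, PRDX3, CDH5, CDYL2, NFXL1 and ENSG00000254692, which has no symbol in the name table. The genes that fell were ZFAND3, PDCD6P1, FAM241B, NKX2-1, CTNNBIP1 and C19orf48P. For 10 of the 15 genes the libraries of the lines did not overlap (5 higher and 5 lower), beside 1.66% of all genes tested (0.55% higher and 1.11% lower). With every value under 3 counts set to 3 counts, 7 of the 10 stayed apart, and NFXL1, NKX2-1 and PDCD6P1 did not. At an unadjusted p under 0.05 there were 1660 genes (9.92%), 617 higher (3.69%) and 1043 lower (6.23%).

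This count depended on the fit. An edgeR fit of the 20 polysome libraries alone called 0 genes of 14582 (697 at an unadjusted p under 0.05, 4.78%). On the same libraries limma voom with sample quality weights called 45 (0.309%), and on all 40 the DESeq2 Wald test called 144 (0.86%). All 15 genes were among the 144, and 10 of them were among the 45. With DESeq2 size factors in the edgeR fit, 8 higher and 2 lower genes were called. The count was 10, 3, 5, 5 and 8 without control replicates 1 to 5 and 2, 3, 2, 16 and 14 without knockdown replicates 1 to 5. TNS1 and MATK were called in all 10 of these fits, and the other 13 genes each lost the call in at least 5.

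**Figure D1:**
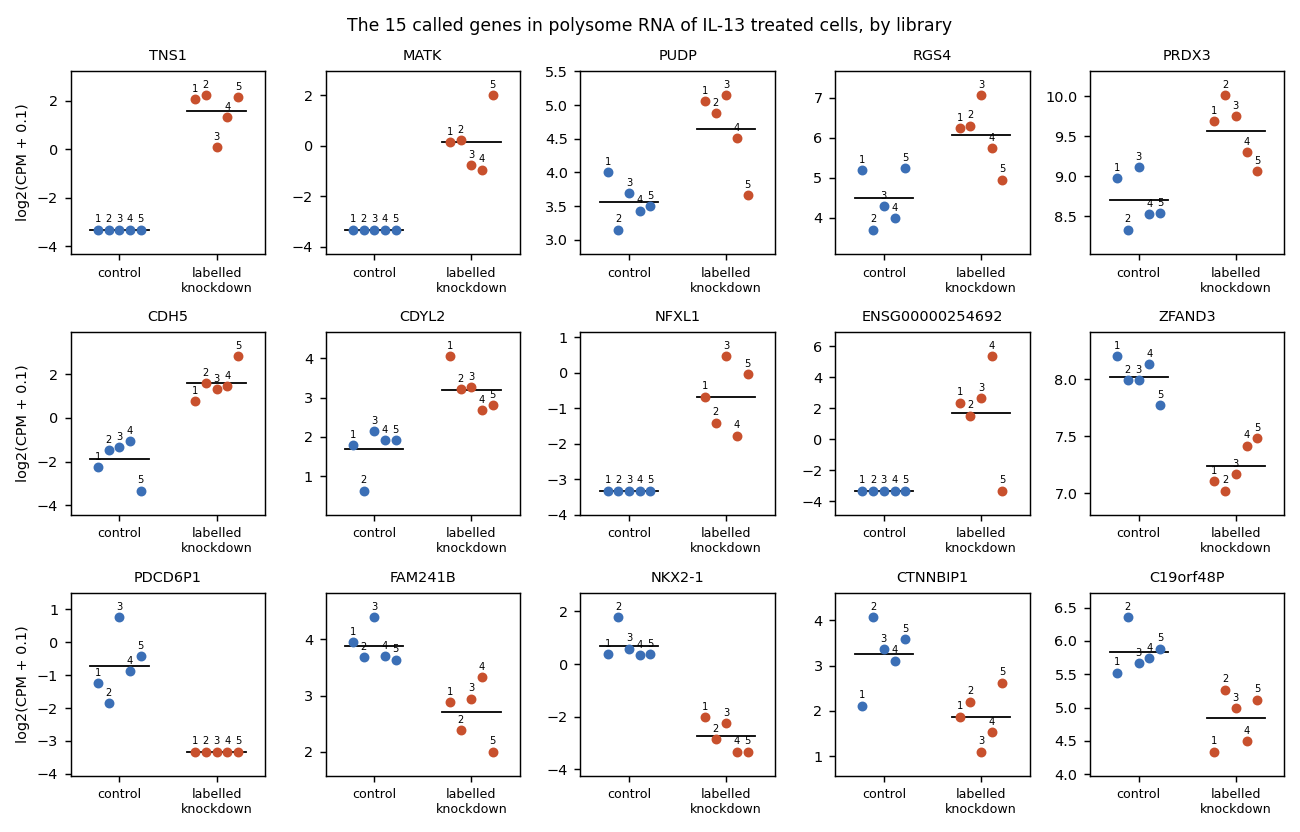
Level of each called gene on a log2(CPM + 0.1) scale (y axis) in the 5 control (blue) and 5 labelled knockdown (red) libraries of IL-13 polysome RNA. Points carry their replicate number and lines are group means; TNS1, MATK, NFXL1 and ENSG00000254692 sit at 0 CPM in all 5 control libraries and PDCD6P1 in all 5 knockdown libraries.

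Among adhesion and signalling genes, TNS1 encodes tensin 1, which links integrins to actin at focal adhesions. It had 0 counts in all 5 control libraries and 4.05, 4.55, 0.965, 2.38 and 4.33 CPM in the knockdown libraries, or 108, 115, 34, 74 and 10 counts. Every knockdown library was thus above every control library. Against a floor of 3 counts per control library it was at least 16.8-fold higher (edgeR adjusted p = 0.000284). The adjusted p was 0.0979 in limma voom and 0.141 in the fit of 20 polysome libraries. TNS1 was not absent from control cells: it measured 12.3 CPM ± 4.93 in IL-13 input of control and 13.4 CPM ± 6.59 (SD, n = 5) in that of the line labelled knockdown. In unstimulated polysome RNA the control libraries ran from 0 to 3.34 CPM. The knockdown libraries of that setting measured 0, 5.11, 6.17, 5.30 and 0.978 CPM, so the lines overlapped there. Replicates 2, 3 and 4 lay above every control library, and the values of replicates 1 and 5 came from 0 and 2 counts. Those 2 libraries were shallow: 2 counts of MATK were 0.499 CPM in replicate 1 and 0.978 CPM in replicate 5.

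RGS4, a regulator that speeds up GTP hydrolysis by G protein alpha subunits, rose. It measured 36.4, 12.9, 19.5, 15.6 and 37.6 CPM in control and 75.0, 78.6, 133, 52.9 and 30.8 CPM in the libraries labelled knockdown. The 4 deep knockdown libraries lay above all controls, and the shallow replicate 5 lay within the control range. The difference was 1.62 ± 0.32 (SE; 3.04-fold in the means, edgeR adjusted p = 0.0274). Per transcript length the means were 12.3 and 40.1 TPM. Of the 12 tested genes of the list of regulators of G protein signalling, RGS4 was the only one called, and the list's median difference was 0.01.

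MATK, a tyrosine kinase that phosphorylates the inhibitory site of Src family kinases, had 0 counts in all 5 control libraries. It measured 1.01, 1.07, 0.483, 0.418 and 3.90 CPM in the libraries labelled knockdown, from 27, 27, 17, 13 and 9 counts. It was at least 7.09-fold higher (edgeR adjusted p = 0.012), and at least 3.84-fold higher without knockdown replicate 5, the highest value and the one of fewest counts. CTNNBIP1, an inhibitor of beta-catenin that keeps it from TCF factors, fell from 10.3 CPM ± 4.57 to 3.80 CPM ± 1.56 (SD, n = 5). Its control libraries held 4.23, 16.7, 10.2, 8.53 and 11.9 CPM and its knockdown libraries 3.57, 4.51, 2.04, 2.80 and 6.07 CPM. Only control replicate 1 lay among the knockdown values. The difference was -1.52 ± 0.32 (SE, edgeR adjusted p = 0.0448).

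CDH5 encodes VE-cadherin, the junction cadherin of endothelial cells. It measured 0.108, 0.264, 0.300, 0.382 and 0 CPM in control and 1.61, 2.89, 2.39, 2.64 and 6.93 CPM in the libraries labelled knockdown, without overlap. The difference was 3.64 ± 0.74 (SE, edgeR adjusted p = 0.0344). CDH5 stood on the list of 15 markers of other cell types, of which 3 passed the filter on low counts and 7 had 0 counts in all 10 libraries. The endothelial markers PECAM1 and VWF were at most 0.176 and 0.308 CPM, both in control libraries, and PECAM1 was at 0 in every knockdown library. The summed level of the 15 markers was 5.00 to 32.8 CPM in control and 8.49 to 45.1 CPM in the libraries labelled knockdown, most of it CD14.

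Of metabolic genes, PRDX3, the thioredoxin-dependent peroxidase of mitochondria, rose. It measured 505, 323, 553, 370 and 372 CPM in control and 826, 1031, 864, 633 and 536 CPM in the libraries labelled knockdown. Only knockdown replicate 5 lay below the highest control. The difference was 0.87 ± 0.17 (SE; 1.83-fold, edgeR adjusted p = 0.0274), and the means were 312 and 634 TPM. PUDP, the pseudouridine 5'-phosphatase, measured 15.9, 8.76, 12.8, 10.7 and 11.2 CPM in control and 33.1, 29.4, 35.3, 22.7 and 12.6 CPM in the libraries labelled knockdown. It rose by 1.18 ± 0.22 (SE; 2.24-fold, edgeR adjusted p = 0.0225), again with only knockdown replicate 5 inside the control range. Outside this group, FAM241B fell without overlap, from 14.9 CPM ± 3.61 to 6.75 CPM ± 2.34 (SD, n = 5), a difference of -1.11 ± 0.23 (SE, edgeR adjusted p = 0.0437).

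Among genes of the nucleus, NKX2-1, the homeobox factor of lung and thyroid identity, fell. It measured 1.19, 3.35, 1.40, 1.18 and 1.19 CPM in control and 0.150, 0.0396, 0.114, 0 and 0 CPM in the libraries labelled knockdown. The 4 deep knockdown libraries lay below all controls, whereas in knockdown replicate 5 a count of 0 allows up to 1.30 CPM, which is above 3 of the controls. The call (edgeR adjusted p = 0.0448) was lost in all 10 fits that left out a library, with adjusted p up to 0.113. CDYL2, a chromodomain protein, rose from 3.30 CPM ± 1.09 to 9.68 CPM ± 4.05 (SD, n = 5) without overlap, by 1.56 ± 0.33 (SE, edgeR adjusted p = 0.0437). ZFAND3, a zinc finger protein, fell without overlap from 294, 254, 255, 280 and 218 CPM to 138, 130, 144, 171 and 179 CPM. Its difference was -0.77 ± 0.15 (SE; 1.71-fold lower, edgeR adjusted p = 0.0274), and its means were 90.0 and 58.9 TPM.

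NFXL1, a zinc finger protein of the NFX1 family, had 0 counts in all controls and between 2 and 45 in the libraries labelled knockdown. It was at least 3.23-fold higher in the mean (edgeR adjusted p = 0.0437) and at least 2.40-fold higher without knockdown replicate 3, its highest library. ENSG00000254692 had 0 counts in all controls and in knockdown replicate 5. It measured 5.03, 2.77, 6.08 and 40.6 CPM in knockdown replicates 1 to 4, at least 56.1-fold higher and at least 17.9-fold higher without replicate 4 (edgeR adjusted p = 0.0461). PDCD6P1, named as a pseudogene, had 0 counts in all 5 knockdown libraries and 0.176 to 1.60 CPM in control. It was at least 1.87-fold lower (edgeR adjusted p = 0.0274), at least 6.19-fold lower without the shallow knockdown replicate 5 and at least 1.16-fold lower without control replicate 3. C19orf48P, also named as a pseudogene, fell without overlap from 58.3 CPM ± 14.1 to 29.5 CPM ± 7.90 (SD, n = 5), by 0.99 on the log2 scale (edgeR adjusted p = 0.0465). Reads of a pseudogene can be shared with its parent gene, so the levels of these last 2 genes are uncertain.

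To see which of these differences were seen with polysome RNA of IL-13 treated cells alone, the same line difference was read in the other 3 settings, each measured in other libraries of the same lines. All 15 genes had the same sign in IL-13 input and 13 had the same sign in all 4 settings. NFXL1 and ENSG00000254692 had the opposite sign without IL-13, in polysome and in input. PRDX3 differed by 0.84 ± 0.17 in unstimulated polysome RNA, 0.82 ± 0.17 in IL-13 input and 0.75 ± 0.17 (SE) in unstimulated input, close to its 0.87. PUDP (1.24, 1.06 and 1.06) and RGS4 (1.72, 1.46 and 1.74) had no overlap between the lines in any of these 3 settings. CDH5 was the only called gene whose lines did not overlap in any of the 4 settings. MATK was at 0 in all 15 other control libraries except unstimulated input replicate 1, at 0.143 CPM, and was above 0 in all 15 other knockdown libraries.

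For 3 of the lower genes the values elsewhere were nearer to 0, but none of these changes passed the interaction tests given below. C19orf48P differed by -0.20 ± 0.21 in unstimulated polysome RNA and -0.27 ± 0.21 (SE) in IL-13 input, compared with -0.99 here. FAM241B differed by -0.46 ± 0.23 and -0.51 ± 0.23 (SE), compared with -1.11. ZFAND3 differed by -0.56 ± 0.15 and -0.57 ± 0.15 (SE), compared with -0.77. Of the 15 genes, MATK, PUDP and RGS4 were also called in unstimulated polysome RNA (5 genes called, 0.0299%), RGS4 in unstimulated input (2 genes, 0.012%), and none in IL-13 input. In IL-13 input edgeR called 0 genes, with 502 at an unadjusted p under 0.05 (3.0%).

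**Figure D2:**
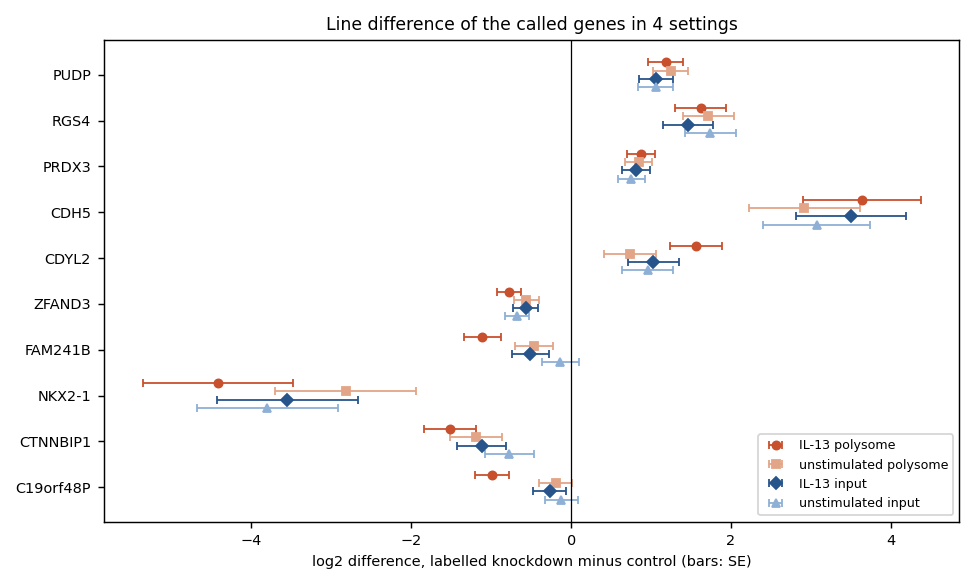
Log2 difference, labelled knockdown minus control (x axis; bars are SE), of the 10 called genes with counts in both lines, in 4 settings of 5 libraries per line. PUDP, RGS4, PRDX3 and CDH5 lie at similar values in all 4 settings, while FAM241B and C19orf48P lie farther from 0 in IL-13 polysome RNA than in the other 3.

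The differences between settings were tested as interaction terms. Against IL-13 input, 1 gene was called (0.00598%): the line difference of TNS1 was larger in polysome RNA (edgeR adjusted p = 0.00786). At an unadjusted p under 0.05 there were 300 genes (1.79%). Without control replicate 4 the adjusted p of TNS1 was 0.0519, and the DESeq2 Wald test called 10 genes. Against unstimulated polysome RNA edgeR called 0 genes, with 563 at an unadjusted p under 0.05 (3.36%), and the DESeq2 Wald test called 25. TNS1 had the smallest p there too, with an edgeR adjusted p of 0.0977.

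Below the threshold, the rule for named genes took the 10 genes in each direction with the smallest p that averaged at least 5 CPM in a line and did not overlap. Non-overlap was part of the rule and is no support. The DESeq2 Wald test called all 20, beside 0.86% of all genes. It used the same counts from which they were picked, so this is no support either. Among the higher ones, MSN (moesin, which ties membrane proteins to actin) measured 39.9 to 82.6 CPM in control and 99.9 to 155 CPM in the libraries labelled knockdown, a difference of 0.77 ± 0.19 (SE, edgeR adjusted p = 0.097). SEMA3C, a secreted semaphorin, measured 4.67 to 8.67 and 11.4 to 17.0 CPM (1.25 ± 0.30 SE, edgeR adjusted p = 0.0928). The Wnt ligand WNT7B measured 1.84 to 4.67 and 4.96 to 7.82 CPM, and the R-spondin receptor LGR4 13.4 to 22.7 and 27.6 to 41.4 CPM (both edgeR adjusted p = 0.097). GALC, PDE1C, NAP1L4, NFAT5, DESI1 and STEAP3 completed the 10, with edgeR adjusted p from 0.0603 to 0.0975. NFAT5, the osmotic stress factor, was at 0 in control replicates 1 and 5.

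Among the 10 lower genes below the threshold, MGARP, a mitochondrial protein, measured 46.3 to 73.5 CPM in control and 31.6 to 37.2 CPM in the libraries labelled knockdown (-0.92 ± 0.21 SE, edgeR adjusted p = 0.075). The copper chaperone COX17 measured 11.2 to 19.8 and 5.63 to 10.5 CPM, and the complex III assembly factor UQCC3 14.6 to 25.5 and 3.90 to 13.5 CPM (both edgeR adjusted p = 0.0975). USP18, the interferon-induced ISG15 protease, measured 16.3 to 22.4 and 6.07 to 13.3 CPM (-0.85 ± 0.20 SE, edgeR adjusted p = 0.0925). CNN2, an actin-binding calponin, measured 942 to 1285 and 592 to 788 CPM (-0.57 ± 0.14 SE, edgeR adjusted p = 0.0975). ZNF385A, RNF144B, TTC9, TRIM8 and INO80C were the others, with edgeR adjusted p from 0.075 to 0.101.

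The genes of IL-13 signalling were read from 2 lists. Of 22 tested receptor and signalling genes, 0 were called by edgeR, limma voom or DESeq2 and 0 had an unadjusted p under 0.05. Of all genes, edgeR called 0.0896%, limma voom 0.309% and DESeq2 0.86%, and 9.92% had an unadjusted p under 0.05 in edgeR. With such shares, 0 calls in a list this short carry little information. The median difference of the 22 genes was 0.07, beside -0.04 over all genes. The following members were chosen by role after the values had been computed. STAT6 measured 41.7, 77.8, 45.4, 68.2 and 60.2 CPM in control and 47.1, 76.3, 47.3, 70.7 and 88.4 CPM in the libraries labelled knockdown, a difference of 0.16 ± 0.22 (SE). The groups covered nearly the same range. The receptor chains differed by 0.03 ± 0.26 (IL13RA1) and -0.22 ± 0.32 (IL4R), and the kinases by 0.58 ± 0.36 (JAK1) and -0.06 ± 0.23 (TYK2, SE).

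The feedback inhibitors SOCS1 and CISH, both induced by STAT6, did not pass the test. CISH measured 51.3, 80.6, 69.6, 46.1 and 51.8 CPM in control and 41.1, 55.9, 44.3, 51.7 and 58.9 CPM in the libraries labelled knockdown (-0.25 ± 0.22 SE). SOCS1 measured 4.60 CPM ± 2.12 and 2.85 CPM ± 1.36 (SD, n = 5), a difference of -0.62 ± 0.38 (SE), with overlapping groups. Of 14 tested airway genes known to respond to IL-13, 0 were called by edgeR, limma voom or DESeq2 (0.0896%, 0.309% and 0.86% of all genes). At an unadjusted p under 0.05 there were 0 of them, beside 9.92% of all genes. Their median was 0.23, and -0.17 over those of at least 10 CPM. The chemokine CCL26 (eotaxin-3) measured 6.89 and 7.60 CPM (0.19 ± 0.51 SE) and the steroid enzyme HSD3B1 8.07 and 9.77 CPM (0.27 ± 0.49 SE). TGM2, transglutaminase 2, measured 0.867 to 21.9 CPM in control and 7.43 to 87.3 CPM in the libraries labelled knockdown (1.72 ± 0.94 SE, edgeR adjusted p = 0.568). For the low genes DPP4, ALOX15 and SERPINB4 the SE was above 1, so a 2-fold difference was not detectable. It could also be missed at the SE of CCL26, HSD3B1, TGM2, CD274 (0.56) and SERPINB3 (0.94). The same holds for SPINT1 (0.47), HAS3 (0.43), SOCS1 and PDCD1LG2 (0.35). ABCG2, of the target list below, differed by 0.99 ± 0.32 (SE) and was not called (edgeR adjusted p = 0.244).

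Of 19 tested mRNAs reported as IGF2BP targets, 0 were called, beside 0.0896% of all genes. At an unadjusted p under 0.05, 3 were higher and 3 lower, beside 3.69% and 6.23% of all genes, and the median was -0.11 (0.01 without control replicate 2). Of the 3 lower, IGF2 was at most 0.217 CPM in control and at 0 in every library labelled knockdown. BCL2 measured 4.10 and 2.56 CPM but 0.906 and 0.965 TPM, so its direction depended on the measure. ABCG2, a drug efflux transporter, had the smallest p of the 19: 2.49, 1.32, 1.60, 4.18 and 4.24 CPM in control and 4.20, 6.53, 5.88, 6.12 and 4.33 CPM in the libraries labelled knockdown (0.99 ± 0.32 SE, edgeR adjusted p = 0.244). CCND3, cyclin D3, measured 271 CPM ± 48.4 and 206 CPM ± 32.6 (SD, n = 5; edgeR adjusted p = 0.378). MYC, a reported target in other cells, differed by 0.27 ± 0.42 (SE). Of 18 tested m6A writers, erasers and readers, 0 were called and 0 had an unadjusted p under 0.05 (beside 9.92% of all genes). Their median was 0.01.

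Cytosolic ribosomal protein genes were the list with the most low p-values. None of the 83 tested was called, but 80 had a fitted difference below 0 (beside 53.5% of all genes) and 36 (43.4%) were lower at an unadjusted p under 0.05, beside 6.23% of all genes. The median difference was -0.31, beside -0.04 over all genes. The median level of the list, as log2(CPM + 0.5), was 9.39, 9.37, 9.24, 8.91 and 9.29 in control replicates 1 to 5 and 8.90, 8.87, 9.01, 8.96 and 8.71 in the libraries labelled knockdown. Control replicate 4 lay within the knockdown range and the other controls above it. RPLP2, a protein of the ribosomal stalk, measured 446 CPM ± 110 and 293 CPM ± 30.6 (SD, n = 5; -0.61 ± 0.19 SE, edgeR adjusted p = 0.212). RPS25 measured 436 CPM ± 72.2 and 305 CPM ± 45.1 (SD, n = 5; -0.51 ± 0.14 SE, edgeR adjusted p = 0.155). In the other settings the list's median was -0.22 in unstimulated polysome RNA, -0.13 in IL-13 input and -0.04 in unstimulated input. Of 47 translation initiation and elongation factor genes, 0 were called (beside 0.0896% of all genes). At an unadjusted p under 0.05 there were 0 of the 47 (beside 9.92%), and their median was -0.08.

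**Figure D3:**
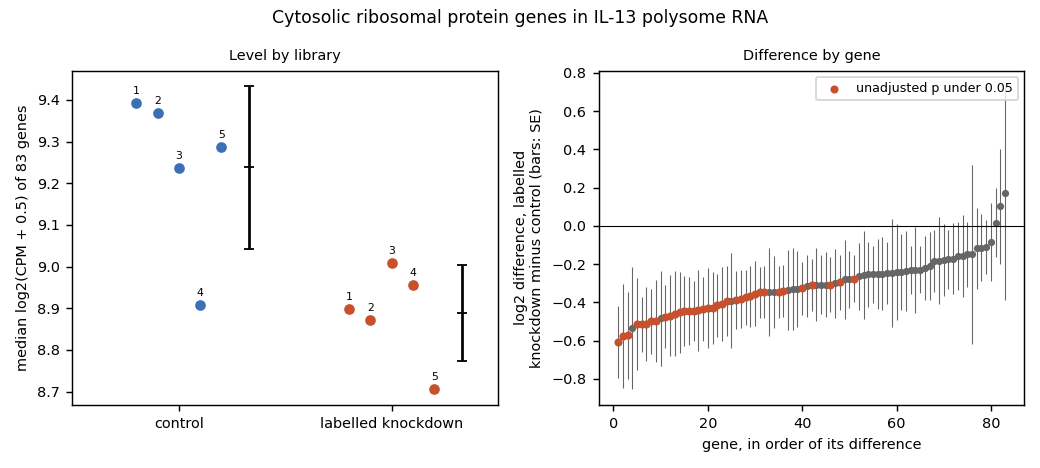
Left, median log2(CPM + 0.5) of 83 cytosolic ribosomal protein genes in each library, with the replicate number beside each point and the mean and SD of each line in black. Right, log2 difference of each gene (bars are SE), with the 36 genes of unadjusted p under 0.05 in red; the genes lie mostly between -0.61 and 0 and the levels of control replicate 4 lie among those of the libraries labelled knockdown.

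The ribosomal protein genes have short transcripts, and transcript length moved with the line difference. Their longest GENCODE v29 transcript had a median of 1857 bases, beside 3271 over the genes tested. Which transcript of a gene was present was not tested, so these lengths, and the bins made from them, are approximate. In 8268 genes of at least 10 CPM with a GENCODE v29 length (the longest transcript), the shortest quintile had a median difference of -0.25 and the longest 0.14, with -0.11, -0.01 and 0.07 between. In the shortest quintile 21.1% of genes were lower and 0.604% higher at an unadjusted p under 0.05, and in the longest 1.45% and 6.53%. The 1607 genes of the shortest quintile that encode no ribosomal protein had a median of -0.24. With offsets for transcript length in each library, the median of the ribosomal protein genes was -0.12, beside -0.02 over all genes, and 17 genes were called, 12 of them among the 15. The same order was seen in unstimulated polysome RNA (-0.14 to 0.09 from the shortest to the longest quintile), IL-13 input (-0.13 to 0.11) and unstimulated input (-0.05 to 0.03).

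The length pattern differed between libraries of the same line. The shortest quintile minus the longest, as median deviation from the mean of the 10 libraries in log2 CPM, was 0.34, 0.65, 0.19, -0.18 and -0.01 in control replicates 1 to 5. It was -0.36, 0.03, -0.32, -0.14 and -0.23 in the libraries labelled knockdown. The means were 0.20 ± 0.32 and -0.20 ± 0.16 (SD, n = 5; two-sided exact permutation p = 0.0397), a measure chosen after the values were seen. Control replicate 2 had the steepest pattern, and the lines overlapped. With 1 library left out in turn the difference ran from -0.50 to -0.29 and the exact permutation p from 0.0238 to 0.0794, under 0.05 only without control replicate 4 or 5 or knockdown replicate 2. GC content moved with the difference too, from a median of 0.13 in the quintile of lowest GC to -0.20 in the highest. The part of GC content or transcript length in the result of a single gene was not tested beyond the fit with length offsets. By the number of UGGAC per kb, the medians were -0.01, 0.02, 0.00, -0.04 and -0.12 from the fewest to the most. In the quintile with the most, the median deviations of control replicates 1 to 5 were -0.05, 0.48, 0.13, -0.03 and -0.10. Those of the libraries labelled knockdown were -0.24, 0.18, -0.27, 0.03 and 0.03, so the lines overlapped and control replicate 2 was highest. In the quintile of lowest GC they overlapped too, with control replicate 2 at -0.72 and knockdown replicate 5 at -0.52.

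**Figure D4:**
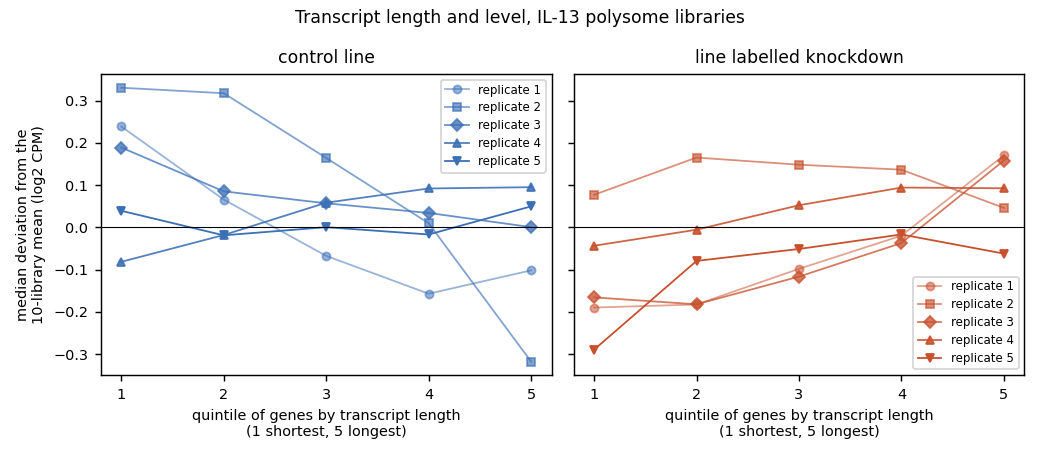
Median deviation of each library from the mean of the 10 libraries (y axis, log2 CPM) in quintiles of 8268 genes by transcript length (x axis), for the control line (left) and the line labelled knockdown (right). Control replicate 2 runs from 0.33 in the shortest to -0.32 in the longest quintile, and knockdown replicates 1 and 3 run the other way.

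Other lists held few genes past a threshold, where edgeR called 0.0896% of all genes. Of 35 tested genes of the actin cytoskeleton and focal adhesions edgeR called TNS1 alone, and the median was 0.24. The DESeq2 Wald test also called CNN2, which was lower (adjusted p = 0.0228). Of 40 genes of the extracellular matrix and integrins 0 were called by edgeR and 1 each by limma voom and DESeq2, with a median of 0.41. The epithelial list had a median of 0.11 and the mesenchymal list -0.13 (from -0.26 to 0.20 with 1 library left out in turn, above 0 without control replicate 2 or 5 or knockdown replicate 3 or 4), and edgeR called no gene of either. ELF3, an epithelial transcription factor, measured 7.58 to 23.4 and 29.9 to 41.4 CPM (edgeR adjusted p = 0.204). MMP2, a gelatinase, measured 4.14 to 17.8 and 14.6 to 74.1 CPM (edgeR adjusted p = 0.0975) and was the 1 mesenchymal marker that the DESeq2 Wald test called (adjusted p = 0.00506).

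The medians of the stress and cytokine lists lay nearer to that of all genes with IL-13 than without. ATF4 amino acid stress genes had a median of -0.28 here and -1.02 in unstimulated polysome RNA. Immediate early and growth factor genes had -0.12 and -1.05, and NF-kB and inflammatory cytokine genes 0.29 and -1.92. Input RNA showed the same order, with medians of -0.14 with and -0.77 without IL-13 for the ATF4 list. They were -0.07 and -0.91 for immediate early and growth factor genes, and -0.001 and -1.43 for NF-kB and inflammatory cytokine genes. No gene of these 3 lists was called here or in the interaction of the 2 polysome settings. SLC7A5, an amino acid transporter of the first list, measured 371 to 1602 CPM in control and 961 to 3652 CPM in the libraries labelled knockdown (edgeR adjusted p = 0.201). Of the 26 genes of that list 21 had a fitted difference below 0, beside 53.5% of all genes. At an unadjusted p under 0.05, 3 were lower (11.5%, beside 6.23% of all genes) and 1 higher (3.85%, beside 3.69%). CHAC1, an enzyme that degrades glutathione, measured 11.3, 13.2, 2.44, 1.32 and 2.39 CPM in control and 1.28, 1.78, 1.99, 1.61 and 1.30 CPM in the libraries labelled knockdown (-1.91 ± 0.71 SE, edgeR adjusted p = 0.339). Control replicates 1 and 2 held its high values. FOSL1, an AP-1 subunit, measured 44.4, 42.5, 47.6, 34.2 and 45.8 CPM in control and 80.8, 86.0, 83.5, 80.1 and 57.2 CPM in the libraries labelled knockdown. It did not overlap between the lines, but its edgeR adjusted p was 0.616 (0.86 ± 0.51 SE, with the spread taken over all 40 libraries).

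Interferon-stimulated genes (32 tested, median -0.03), cell cycle genes (37, -0.01), cholesterol and fatty acid synthesis genes (30, -0.11), glycolysis and hypoxia genes (29, -0.05) and mitochondrially encoded mRNAs (13, -0.05) had 0 called by edgeR. Nuclear and snoRNA host noncoding RNAs (17, -0.12) also had 0, beside 0.0896% of all genes. OAS3, an interferon-induced sensor of double-stranded RNA, measured 4.01 to 19.9 and 20.2 to 29.1 CPM (edgeR adjusted p = 0.269), opposite in direction to USP18 of the same list, which the DESeq2 Wald test called. CDKN1A, the p21 inhibitor of cyclin-dependent kinases, measured 756 CPM ± 187 and 480 CPM ± 101 (SD, n = 5; edgeR adjusted p = 0.235). Among the 7 tested airway identity genes NKX2-1 alone was called.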

How the data were processed

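RNA of BEAS-2B cells was selected for poly(A) and sequenced as stranded, paired-end libraries, per the labels' protocols. The submitters' processing notes name Trimmomatic, MultiQC, Salmon and DESeq2, without their roles. The deposited table has columns headed counts and abundance for every library, per the file headers. The deposited counts were partly not whole and had unequal totals, and were read as unscaled estimated counts. The deposited abundance was read as TPM, which is relative to depth and transcript length. The genome build and annotation are not given in the sources used here, so no coordinates are printed. Of 62263 Ensembl IDs, 62246 matched a symbol.

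The design had assumed counts, and the estimated counts were rounded to whole numbers. The filter on low counts was filterByExpr over 8 groups and left 16735 genes. edgeR 4.0.16 in R 4.3.3 was used with TMM factors and a quasi-likelihood fit of 1 mean per group over 40 libraries, with 32 residual degrees of freedom. Two-sided p-values were adjusted over every tested gene (Benjamini-Hochberg). IGF2BP1, IGF2BP2 and IGF2BP3 had exact permutation tests of log2(CPM + 1). A floor of 3 counts covers counting error alone, because without molecular identifiers reads can be copies of 1 molecule. Where a line had at most 3 counts in every library, the floor was averaged over its 5 libraries.

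Named genes were the IGF2BP family, up to 30 called genes, the next 10 uncalled genes in each direction with at least 5 CPM and no overlap, the gene of smallest p in each interaction, and the called genes of each list or else the 2 of smallest p. A gene that this rule names is not reported here. Markers of the cell line and of other cell types were listed besides. The comparison, the 23 lists and the tests were chosen with earlier results of these data known. Lists are described by counts and medians, with no test. Transcript lengths, GC content and motifs came from GENCODE 29 transcripts, matched on the ID without its version for 96.0% of tested genes.

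Alternatives were DESeq2 1.42.0 size factors, its Wald test, no filter beyond 1 count, only the 20 polysome or the 10 compared libraries, the 37 libraries of at least 5000000 counts, limma 3.58.1 voom with sample quality weights, a replicate block, 0.1 CPM as pseudocount, list genes of at least 10 CPM, and leaving out each library. Length offsets from 20 bins and only polysome libraries of at least 5000000 counts were added after seeing the data. The fit was tested on simulated data. No replicate pair was a copy of another.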

Additional observations from a re-analysis of the deposited data

Results flagged for a closer look

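In 7 of the 73 sets of 5 library values examined (the called and uncalled named genes, the IGF2BP family and the library totals) 1 library lay far from the other 4; chance would give about 3.6. The library total was 2302954 counts in knockdown replicate 5 and 25016495 to 33763234 in its group otherwise. MATK was at 3.90 CPM (9 counts) in this library, against 0.418 to 1.07 CPM in the others. CDH5 measured 6.93 CPM there from 16 counts, against 1.61 to 2.89 CPM. Control replicate 2 had NKX2-1 at 3.35 CPM, against 1.18 to 1.40 CPM. It also had ZNF385A at 48.3 CPM, against 19.8 to 27.5 CPM, and IGF2BP3 at 4.23 CPM, against 11.2 to 12.8 CPM in the other control libraries. ENSG00000254692 measured 40.6 CPM in knockdown replicate 4, against 0 to 6.08 CPM. The line difference of TNS1 was larger in IL-13 polysome RNA than in IL-13 input (edgeR adjusted p = 0.00786 for the interaction).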

How the results depend on the processing

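The number of called genes, 15, was 7 with no filter beyond 1 count and 30 in the 37 libraries of at least 5000000 counts (24 higher, 6 lower; 12 shared). It was 45 in limma voom with sample quality weights and 144 in the DESeq2 Wald test. It was 0 in edgeR fits of the 20 polysome libraries, the 10 libraries compared (846 at an unadjusted p under 0.05) and the polysome libraries of at least 5000000 counts (787), and ran from 2 to 16 with a library left out. The typical biological coefficient of variation was 0.481 over the 20 polysome and 0.332 over the 20 input libraries. The cause of these differences was not tested. The interaction with unstimulated polysome RNA gave 1 gene with no filter and 25 with the DESeq2 Wald test, instead of 0, and 0 to 0 with a library left out. The interaction with IL-13 input gave 10 with the DESeq2 Wald test, instead of 1, and 0 to 1 with a library left out.

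The replicate number was not used as a pairing in the main fit. Same-numbered libraries of the lines had deviations correlated at 0.06, 0.55, 0.18, 0.29 and -0.54 (8268 genes). Of the 5 control libraries, 1 correlated best with its own number. These correlations cannot exclude that libraries of the same number were handled together. A replicate block gave 10 called genes over 40 libraries and 0 over the 10 compared. With paired sign flips for the block, the IGF2BP3 difference was -0.28 (exact permutation p adjusted to 0.812) and that of IGF2BP2 0.69 (adjusted to 0.75). The IGF2BP3 difference was 0.0542 without knockdown replicate 5, the sign reversed, and ran from -0.54 to 0.0542 with a library left out. That of IGF2BP2 ran from 0.47 to 0.86.

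The called genes kept their direction in all 309 values from alternatives. These were refits of the same counts in which the genes were picked, so a kept direction is no separate support. Of 322 list medians under alternatives 9 moved by more than the spread between libraries, among them that of the ribosomal protein genes with length offsets. With a library left out that median ran from -0.39 to -0.27, and those of the mesenchymal list crossed 0. At 2302954 counts, 3 counts in knockdown replicate 5 are 1.30 CPM, so levels under that are not measured there.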
